A study of Mus musculus with 2 samples.

Results

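The genes described here are Amn, Cubn, Lrp2, Dab2, Rbp4, Ttr, Apom, Afp and Spink1, the cubilin and megalin uptake system of the visceral endoderm together with proteins that this tissue secretes. The 9 genes were chosen by name, with earlier results of these arrays known, and every probe set annotated to exactly one of them was taken. That gave 23 of the 34945 probe sets that name a single gene, and 9 of 18193 genes. The differences between the arrays helped to choose the genes, so they are given as a description and support nothing by themselves.

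Visceral endoderm is the absorptive epithelium that surrounds the early embryo and feeds it before the placenta works. Cubilin, a large peripheral membrane protein, reaches the cell surface only when bound to amnionless, and together with megalin it takes up vitamin B12 bound to intrinsic factor, albumin, transferrin, apolipoprotein A-I and other ligands through clathrin-coated pits. The same cells secrete plasma proteins that the liver makes later in life, among them alpha-fetoprotein, transthyretin and retinol-binding protein.

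RNA was compared between 1 culture labelled Mof null (MOF-/-) and 1 labelled wild type (MOF +/+), both mouse embryonic stem cells of strain C57BL/6. Mof, gene symbol Kat8, encodes a histone H4 acetyltransferase. Both lines were derived from embryos at 3.5 days post coitum, had reached passage 15 to 18, and were grown with LIF on fibroblast feeders that were then left off for 2 passages. Each culture was read on 1 Affymetrix array, whose number limits the precision, and the labels do not say whether either line is a single clone. Values are RMA values on a log2 scale, and a difference is the value on the array labelled Mof null less that on the other array. The arrays are called null-labelled and wild-type-labelled below, since the labels could not be checked.

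Over the 45101 probe sets the values ran from 2.85 to 14.67 on the null-labelled array and from 2.77 to 14.65 on the wild-type-labelled array. Without replicates no difference below has an error, a p-value or a test. Genes were counted by size alone, at an absolute difference of at least 1 (2-fold), taking each gene's brightest probe set, and expressed means that 1 value or both reached 6.02, the median of all values. The only spread available was that between expressed probe sets of the same gene, with a pooled SD of 0.33 over 5362 genes, which holds no variation between cultures. Kat8 itself had 8.37 on the null-labelled array and 8.06 on the wild-type-labelled array. Where its probe set lies on the gene is not stated in the labels, and neither is the deleted stretch, so its level does not check them. All 21 pluripotency markers were above the level filter on both arrays.

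Of the 9 genes, 8 were expressed, 5 passed 2-fold upward on the null-labelled array and none downward. The 5 were Amn, Cubn, Lrp2, Rbp4 and Spink1. Among all 12015 expressed genes 5.09% were higher by 2-fold or more and 11.9% lower, which is the background of this comparison and not a test of genes chosen from it. The pluripotency markers' median difference was 0.58, and subtracting it is a scaling chosen after seeing the data. With it, 97 of all expressed genes were past 2-fold higher and 2842 lower, in place of 611 and 1429. The same 5 of the 9 genes were then past 2-fold higher. In bulk RNA, fewer cells of a type and less RNA per cell cannot be told apart.

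**Figure D1:**
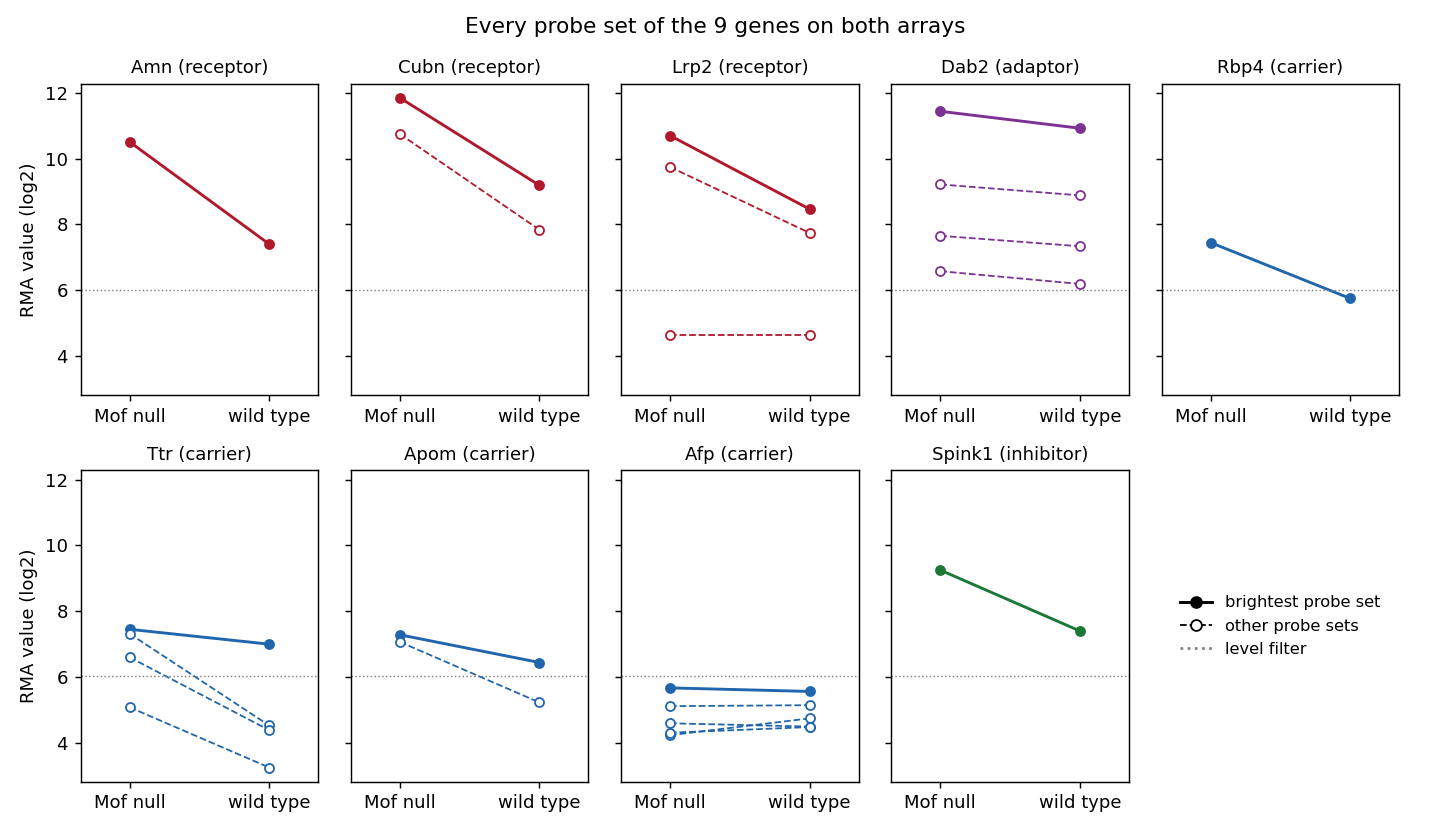
RMA values (log2, y axis) of all 23 probe sets of the 9 genes on the null-labelled array (left) and the wild-type-labelled array (right), 1 panel per gene, with the brightest probe set filled and the level filter of 6.02 dotted. The probe sets of Amn, Cubn, Rbp4 and Spink1 slope down to the right, Dab2 runs nearly level in all 4 probe sets, the 4 Ttr probe sets disagree in slope, and the 5 Afp probe sets stay below the filter on both arrays.

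The genes of the endocytic receptor stood highest. Amn (Entrez gene 93835) encodes amnionless, the transmembrane partner that carries cubilin to the apical surface. It was read by 1 probe set, with 10.51 on the null-labelled array and 7.40 on the wild-type-labelled array. That is a difference of 3.11, or 8.65-fold, the 2nd largest positive difference among expressed genes. The value on the null-labelled array exceeded 91.6% of all probe sets there, and that on the wild-type-labelled array 65.0%.

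Cubn (Entrez gene 65969) encodes cubilin, the ligand-binding chain of the same receptor. Its brighter probe set had 11.85 on the null-labelled array and 9.19 on the wild-type-labelled array, a difference of 2.66 (6.34-fold), the 7th largest. The second Cubn probe set, which has no suffix marking a possible match to several transcripts, had 10.75 on the null-labelled array and 7.84 on the wild-type-labelled array, a difference of 2.91. The Cubn probe sets thus lay 0.25 apart in their difference, less than the pooled SD between probe sets of a gene.

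Lrp2 (Entrez gene 14725) encodes megalin, a member of the LDL receptor family that binds many ligands of its own and helps to internalise cubilin. Its brightest probe set had 10.70 on the null-labelled array and 8.46 on the wild-type-labelled array, a difference of 2.24 (4.71-fold), which ranked 19th. A second one had 9.74 on the null-labelled array and 7.74 on the wild-type-labelled array, a difference of 2.01. The third Lrp2 probe set, 1445901_at, was below the filter and held the same value, 4.65, on both arrays. Averaging all 3 probe sets therefore gives Lrp2 a difference of 1.41. Amn, Cubn and Lrp2 were the members that also passed 4-fold.

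The promoters of these receptor genes are shown because all 3 genes were past 4-fold, and that of Afp because it is a classic visceral endoderm promoter whose gene stayed below the filter. Each window is RefSeq sequence of build GRCm38.p6, 250 bases before to 50 after the annotated start, 5′ to 3′ along the gene. Capitals mark matches on either strand to 6 short motifs, chosen with these windows in view.
Amn promoter, chr12:111270846-111271145, plus strand: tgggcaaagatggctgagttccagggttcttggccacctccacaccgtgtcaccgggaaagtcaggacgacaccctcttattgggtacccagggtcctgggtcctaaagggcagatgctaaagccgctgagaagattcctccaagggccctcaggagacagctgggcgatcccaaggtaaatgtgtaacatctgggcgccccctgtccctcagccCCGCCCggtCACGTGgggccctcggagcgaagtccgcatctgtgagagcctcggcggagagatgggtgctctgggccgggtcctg
Cubn promoter, chr2:13491827-13492126, minus strand: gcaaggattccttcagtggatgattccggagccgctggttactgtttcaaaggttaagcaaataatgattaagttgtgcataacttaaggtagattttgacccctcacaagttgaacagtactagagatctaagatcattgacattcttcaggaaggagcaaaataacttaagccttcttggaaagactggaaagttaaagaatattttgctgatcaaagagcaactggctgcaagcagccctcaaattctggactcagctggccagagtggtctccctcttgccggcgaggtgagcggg
Lrp2 promoter, chr2:69585980-69586279, minus strand: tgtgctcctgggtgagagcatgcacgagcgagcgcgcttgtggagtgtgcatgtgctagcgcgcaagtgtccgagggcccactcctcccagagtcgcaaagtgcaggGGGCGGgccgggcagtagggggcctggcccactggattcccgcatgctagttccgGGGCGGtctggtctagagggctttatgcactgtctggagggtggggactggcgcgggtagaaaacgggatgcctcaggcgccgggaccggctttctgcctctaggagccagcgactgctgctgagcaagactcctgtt
Afp promoter, chr5:90490464-90490763, plus strand: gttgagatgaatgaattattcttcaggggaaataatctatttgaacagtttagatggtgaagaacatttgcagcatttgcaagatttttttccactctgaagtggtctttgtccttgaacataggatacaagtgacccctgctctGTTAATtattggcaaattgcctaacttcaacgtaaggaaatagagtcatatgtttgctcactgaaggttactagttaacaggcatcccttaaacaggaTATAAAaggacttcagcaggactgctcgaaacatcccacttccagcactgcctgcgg
Promoter windows were matched for 7 of the 9 genes, giving 9 windows. The Amn window has a GC box (GGGCGG, read on the other strand as CCGCCC), which 35.7% of all 32851 promoter windows also hold, at bases 216 to 221. An E-box (CACGTG), found in 7.15% of all windows, follows at bases 225 to 230. In the Lrp2 window the GC box occurs at bases 108 to 113 and 163 to 168. None of the 6 motifs is in the Cubn window. The Afp window holds the core of the HNF1 motif (GTTAAT), present in 7.10% of all windows, at bases 146 to 151, and a TATA box (TATAAA), present in 13.6%, at bases 244 to 249. The other 2 motifs searched were the GATA motif (AGATAA, 11.2% of all windows) and the FOXA motif (TGTTTAC, 3.65%), and neither is in these 4 windows. No motif matches overlap there. Base composition differed as well, with 62.3% G and C and 15 CpG in the Amn window and 65.0% and 20 in that of Lrp2, against 44.3% and 5 in that of Cubn and 40.0% and 3 in that of Afp. The median window had 52.7% and 7 CpG. No motif of the 6 is present in all 3 receptor gene windows.

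The adaptor Dab2 differed little. Dab2 (Entrez gene 13132) binds the cytoplasmic tails of megalin and amnionless and links them to clathrin. Its brightest probe set had 11.44 on the null-labelled array and 10.92 on the wild-type-labelled array, a difference of 0.52, which was -0.066 relative to the pluripotency markers. All 4 Dab2 probe sets gave differences between 0.32 and 0.52, a range smaller than the pooled SD between probe sets. Macrophages and fibroblasts also express Dab2, and their markers were lower on the null-labelled array (values below), whose part in the Dab2 value was not tested.

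Carrier genes differed among themselves. Rbp4 (Entrez gene 19662), the plasma carrier of retinol, was read by 1 probe set with 7.45 on the null-labelled array and 5.75 on the wild-type-labelled array, a difference of 1.70 (3.25-fold). Only the first of these values is above the filter, so Rbp4 entered the expressed genes through the array on which it is higher.

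Ttr (Entrez gene 22139) encodes transthyretin, which carries thyroid hormone and holds retinol-binding protein in plasma. Its 4 probe sets disagreed. The brightest, 1451580_a_at, had 7.45 on the null-labelled array and 6.99 on the wild-type-labelled array, a difference of 0.45 that became -0.13 relative to the pluripotency markers. The next, 1454608_x_at, had 7.31 on the null-labelled array and 4.52 on the wild-type-labelled array, a difference of 2.79. For 1459737_s_at the values were 6.60 on the null-labelled array and 4.38 on the wild-type-labelled array, a difference of 2.22. On both arrays 1455913_x_at was below the filter, at 5.08 on the null-labelled array and 3.24 on the wild-type-labelled array. All 4 are probe sets whose suffix marks a possible match to several transcripts, and 3 of them differed by at least 2-fold while the one that stands for the gene did not. Their mean difference was 1.82.

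Apom (Entrez gene 55938), an apolipoprotein of HDL that carries sphingosine-1-phosphate, lay between Rbp4 and Ttr by the brightest probe sets alone. Its brightest probe set had 7.28 on the null-labelled array and 6.44 on the wild-type-labelled array, a difference of 0.84 (1.79-fold). The other had 7.07 on the null-labelled array and 5.22 on the wild-type-labelled array, a difference of 1.84. Averaged, Apom differed by 1.34, which is past 2-fold and below the averaged 1.82 of Ttr and the 1.70 of Rbp4.

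Afp (Entrez gene 11576), the fetal counterpart of albumin and a marker of visceral endoderm and fetal liver, was not among the expressed genes. Its 5 probe sets ran from 4.23 to 5.67 on the null-labelled array and from 4.47 to 5.56 on the wild-type-labelled array. Differences between -0.51 and 0.11 put 2 of the Afp probe sets above 0 and 3 below. Albumin, Alb, was lower still on the scale, with 3.88 on the null-labelled array and 4.16 on the wild-type-labelled array.

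Spink1 (Entrez gene 20730), in older mouse annotation Spink3, encodes a secreted Kazal-type trypsin inhibitor known from pancreas. Its single probe set had 9.25 on the null-labelled array and 7.40 on the wild-type-labelled array, a difference of 1.85 (3.61-fold), ranked 44th. Both values were above the filter.

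Counted by probe set, 16 of the 23 were expressed, 10 of these were 2-fold or more higher and none of the 23 lower by as much. The background over 20935 expressed probe sets that name 1 gene was 4.49% higher and 11.1% lower. Of the expressed probe sets 4 were above the filter on the null-labelled array alone, namely that of Rbp4, both Ttr probe sets with large differences and the second of Apom.

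**Figure D2:**
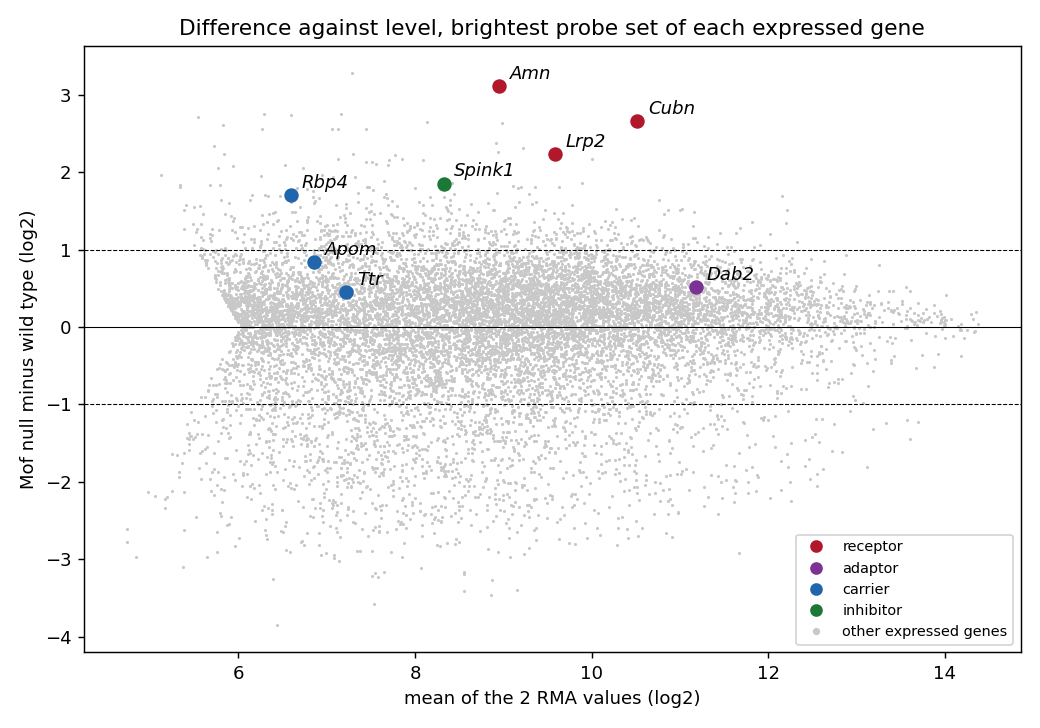
Difference between the arrays (Mof null minus wild type, log2, y axis) against the mean of both values (log2, x axis) for the brightest probe set of 12015 expressed genes (grey), with the 8 expressed genes described here coloured by role and dashed lines at 2-fold. Amn, Cubn and Lrp2 stand at the upper edge between 2.24 and 3.11, while Apom, Dab2 and Ttr lie within the cloud between 0.45 and 0.84.

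Other genes of the same uptake route did not share the size of the receptor differences. Of 10 expressed genes of the LDL receptor family and its chaperones, Sorl1, a sorting receptor, was 2.19-fold higher, and Lrp1, a scavenger receptor abundant in mesenchyme, was 3.35-fold lower. Among all expressed genes 5.09% were higher and 11.9% lower by 2-fold or more. Another expressed probe set of Sorl1 differed by 0.22, and another of Lrp1 by -0.90. Lrp11 was under 2-fold, at 0.90, and the list median of 0.24 became -0.34 relative to the pluripotency markers. Lrpap1, the chaperone that escorts megalin through the secretory pathway, had 12.46 on the null-labelled array and 12.04 on the wild-type-labelled array. Lrpap1, Alb, and Tcn2, Cblif and Stra6 below were named for their role and fall outside the rule for named genes.

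In vitamin B12 handling the median difference was 0.02. None of 12 expressed genes passed 2-fold in either direction, against 5.09% higher and 11.9% lower among all expressed genes. Relative to the pluripotency markers 4 of them were past 2-fold lower, with a median of -0.56. Mmab and Mmaa, which act on the mitochondrial branch of B12 metabolism, differed by -0.75 and -0.55, and Cd320, the receptor for transcobalamin-bound B12, by 0.73. The 3 expressed Mmab probe sets ran from -0.75 to 0.15. Tcn2, transcobalamin itself, had 11.13 on the null-labelled array and 11.58 on the wild-type-labelled array. Cblif, intrinsic factor, was below the filter with 4.54 on the null-labelled array and 4.58 on the wild-type-labelled array.

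Among clathrin adaptors and endosomal sorting genes, 7 of 25 lay above 0, and the median was -0.17. By the brightest probe set none passed 2-fold, against 5.09% higher and 11.9% lower among all expressed genes. Relative to the pluripotency markers 4 were past 2-fold lower, with a median of -0.75. The largest differences were those of the clathrin light chain gene Cltb (-0.89), the endocytic motor gene Myo6 (0.64) and the recycling GTPase gene Rab11a (-0.51).

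Retinoid handling genes went both ways. Of 15 expressed genes, whose median was -0.84, 1 was higher and 6 were lower by 2-fold or more. Among all expressed genes these shares were 5.09% and 11.9%. The median was -0.24 with no filter on level, and the lower count was 3 with the filter at the 75th percentile. Relative to the pluripotency markers 9 were lower, with a median of -1.42. Cyp26a1, which degrades retinoic acid, was 5.19-fold higher, with 10.11 on the null-labelled array and 7.73 on the wild-type-labelled array. Aldh1a1, which makes retinoic acid, was 5.17-fold lower, with 5.08, below the filter, on the null-labelled array and 7.45 on the wild-type-labelled array. The retinoic acid-binding protein gene Crabp2 was 2.78-fold lower. Stra6, the receptor for retinol-binding protein, had 6.60 on the null-labelled array and 5.84 on the wild-type-labelled array.

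Among 13 expressed apolipoprotein and lipoprotein assembly genes, 3 were higher and 2 lower by 2-fold or more, against 5.09% and 11.9% of all expressed genes. Mttp, which loads lipid onto apolipoprotein B, was 3.18-fold higher, with 7.75 on the null-labelled array and 6.07 on the wild-type-labelled array, and Apoc1 was 2.30-fold higher. Apoa1, the third and a known cubilin ligand, was 2.04-fold higher and just above the filter on the null-labelled array alone. Apod was 2.66-fold lower and the cholesterol exporter gene Abca1 2.28-fold lower, Apoa1 and Abca1 being named after their values were seen. The median of 0.51 became -0.37 without probe sets that can match several transcripts and -0.07 relative to the pluripotency markers. The counts were 2 higher and 3 lower without those probe sets, and 1 and 4 relative to the pluripotency markers. With the filter at the 75th percentile they were 1 and 2, and with the mean of all probe sets 3 and 1.

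Most other plasma proteins of the liver were not expressed. Of 18 such genes found on the array, 3 were above the filter. Serpinf1, an inhibitor of vessel growth, and the copper carrier gene Cp were 2.87-fold and 2.86-fold lower, and Serpinf2 differed by 0.36. Cp had 5.44, below the filter, on the null-labelled array. For this list and the next, the background was 5.09% higher and 11.9% lower among all expressed genes. Of 6 expressed Kazal and Kunitz protease inhibitor genes, Spint2 (2.32-fold) and Spint1 (2.09-fold), inhibitors of epithelial membrane proteases, were higher and Tfpi2 was 4.48-fold lower. Their median of 0.29 became -0.17 without probe sets that can match several transcripts and -0.29 relative to the pluripotency markers. The higher count of 2 was 1 without those probe sets, after centring on the median expressed gene and after correction of the trend with level (lowess). Relative to the pluripotency markers it was 0.

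**Figure D3:**
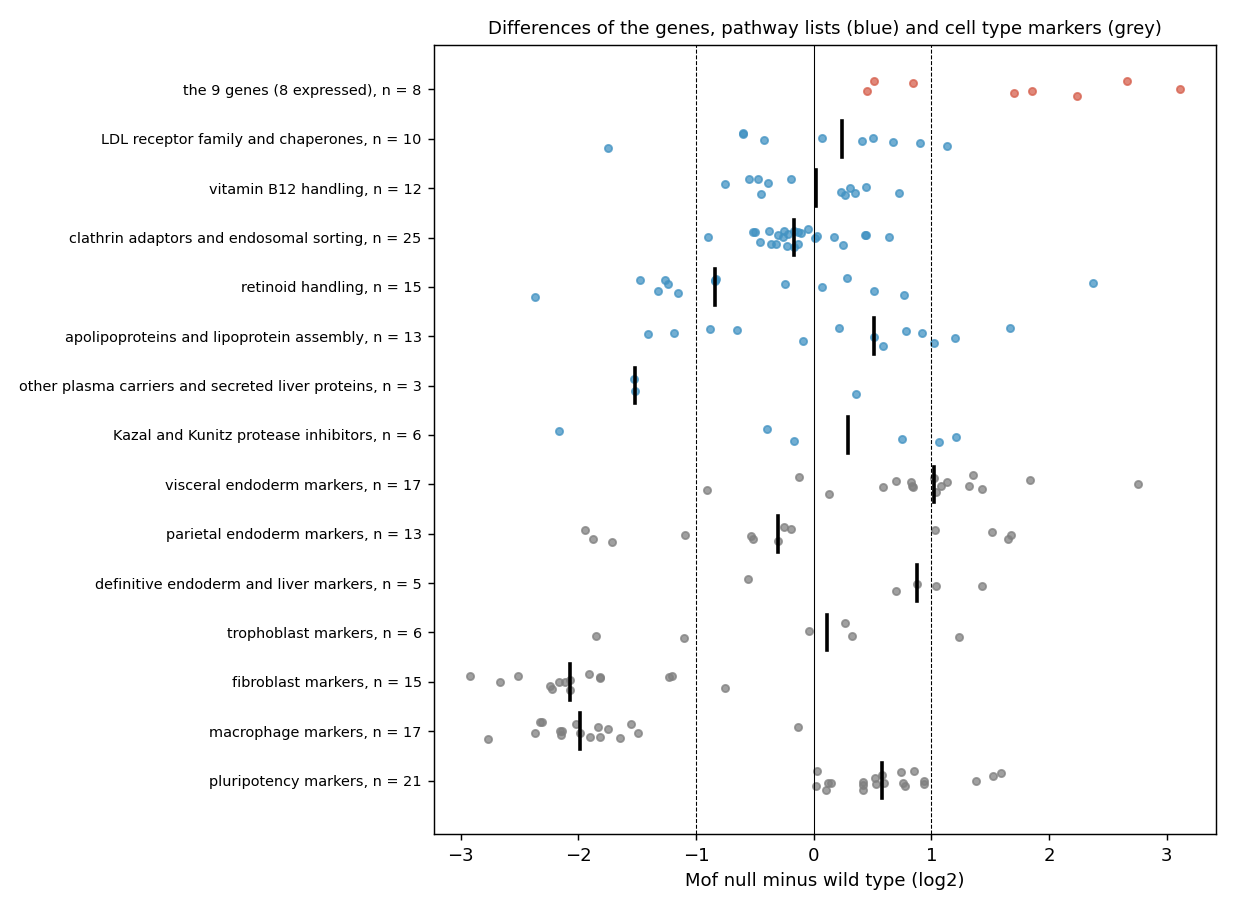
Difference between the arrays (Mof null minus wild type, log2, x axis) of every expressed gene of the set described here (red), of 7 pathway lists (blue) and of 7 cell type marker lists (grey), with black bars at the list medians and dashed lines at 2-fold. Visceral endoderm markers centre on 1.03, clathrin adaptors on -0.17, and fibroblast and macrophage markers on -2.07 and -1.99.

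Markers of visceral endoderm other than the 9 genes were higher for the most part. Of 20 markers found on the array, 17 were expressed. Of these, 9 were higher by 2-fold or more and none was lower by as much, against 5.09% and 11.9% of all expressed genes. The list median was 1.03, against 0.10 over all expressed genes. The list averaged 8.50 on the null-labelled array and 7.57 on the wild-type-labelled array, and 5 of the 17 were below the filter on the wild-type-labelled array alone. Cited1, a transcriptional coactivator, was 6.74-fold higher, the anterior endoderm regulator gene Lhx1 3.58-fold and the endoderm transcription factor gene Sox17 2.69-fold. Cited1 and Lhx1 were below the filter on the wild-type-labelled array, with 5.79 and 4.76, so they entered through the null-labelled array. Hnf4a and Apoa1, past 2-fold as well, entered the same way, with 5.97 and 5.33 on the wild-type-labelled array. Hnf4a was named after its values were seen. At a filter on the 75th percentile the list count was 3. Relative to the pluripotency markers it was 2, with 1 marker past 2-fold lower and a median of 0.44. After centring on the median expressed gene the count was 6, and after correction of the trend with level (lowess) 8. Each of these also left 1 marker past 2-fold lower. The list was chosen with earlier results of these arrays known, so it is not independent evidence of this direction.

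Parietal endoderm markers were split, with 4 of 13 past 2-fold upward, 4 downward and a median of -0.30. For this list and the 2 that follow, the background was 5.09% higher and 11.9% lower among all expressed genes. With the mean of all probe sets the parietal downward count was 2. The upward count was 3 after centring on the median expressed gene, trend correction (lowess) or quantile normalization. The follistatin gene Fst, the thrombomodulin gene Thbd and the plasminogen activator gene Plat were lower by 3.85-fold, 3.66-fold and 3.27-fold. Named after their values were seen, Pth1r (3.21-fold), the laminin genes Lama1 (3.13-fold) and Lamc1 (2.04-fold), and Srgn (2.86-fold) were higher, and Nid1 was 2.13-fold lower. Among definitive endoderm and liver markers 5 of 14 were expressed, of which Sox17 and Foxa2 (2.06-fold), shared with the visceral list, passed 2-fold upward and Foxa1 differed by 0.88. That count of 2 was 1 after centring on the median expressed gene, with the filter at the 75th percentile and without probe sets that can match several transcripts. Relative to the pluripotency markers it was 0, with 1 gene past 2-fold lower. The list median of 0.88 was 0.20 with no filter on level. Trophoblast markers had 1 of 6 past 2-fold upward, Tfap2c at 2.35-fold, and 2 downward, Krt7 at 3.60-fold and Gata3 at 2.15-fold. Gata3 had 4.92 on the null-labelled array, below the filter. On the wild-type-labelled array it had 6.019, barely above the filter of 6.016. The trophoblast downward count was 1 after quantile normalization and without probe sets that can match several transcripts. With the filter at the 75th percentile that count was 0. Relative to the pluripotency markers no trophoblast marker was past 2-fold upward, and the parietal counts were 2 upward and 6 downward.

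Markers of fibroblasts and macrophages were lower on the null-labelled array, and those of pluripotency were higher. Of 15 fibroblast markers 14 were lower by 2-fold or more, against 11.9% of all expressed genes. They averaged 10.29 on the null-labelled array and 12.27 on the wild-type-labelled array. By the brightest probe set Col1a1 (7.57-fold), S100a4 (6.33-fold) and Twist2 (5.70-fold) led, and all 15 stayed above the filter on both arrays. The other expressed Col1a1 probe set differed by -1.77. Of 17 macrophage markers 16 were lower by 2-fold or more, against the same 11.9%. Their averages were 7.86 on the null-labelled array and 9.76 on the wild-type-labelled array. Ptprc (6.80-fold), Tyrobp (5.16-fold) and C1qc (5.01-fold) led, and 3 of the 17, Ptprc among them, were below the filter on the null-labelled array. By the brightest probe set all 21 pluripotency markers lay above 0, as did 56.7% of all expressed genes. Their median was 0.58, with averages of 11.43 on the null-labelled array and 10.79 on the wild-type-labelled array. Named after their values were seen, Klf2 and Klf4, both at 0.02, lay below the median of 0.10 of all expressed genes. The 3 expressed probe sets of Tbx3, named likewise, ran from -0.80 to 0.33. Of the 21 markers, 3 were higher by 2-fold or more, namely Tcl1 (3.02-fold), Fgf4 (2.87-fold) and Dppa3 (2.61-fold). None was lower by as much, and the background was 5.09% higher and 11.9% lower. The part of these cell types in the values of the 9 genes was not tested.

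In the plane of both values, the expressed genes nearest to Amn were Podxl, Cyp26a1 and Pla2g1b, at distances of 0.34, 0.52 and 0.60 log2 units. Those nearest to Cubn were Lama1, Bnip3 and Efhc2, at 0.80, 0.81 and 0.88. These distances rest on 2 arrays and compare probe set values, which do not measure the abundance of one gene against another.

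**Figure D4:**
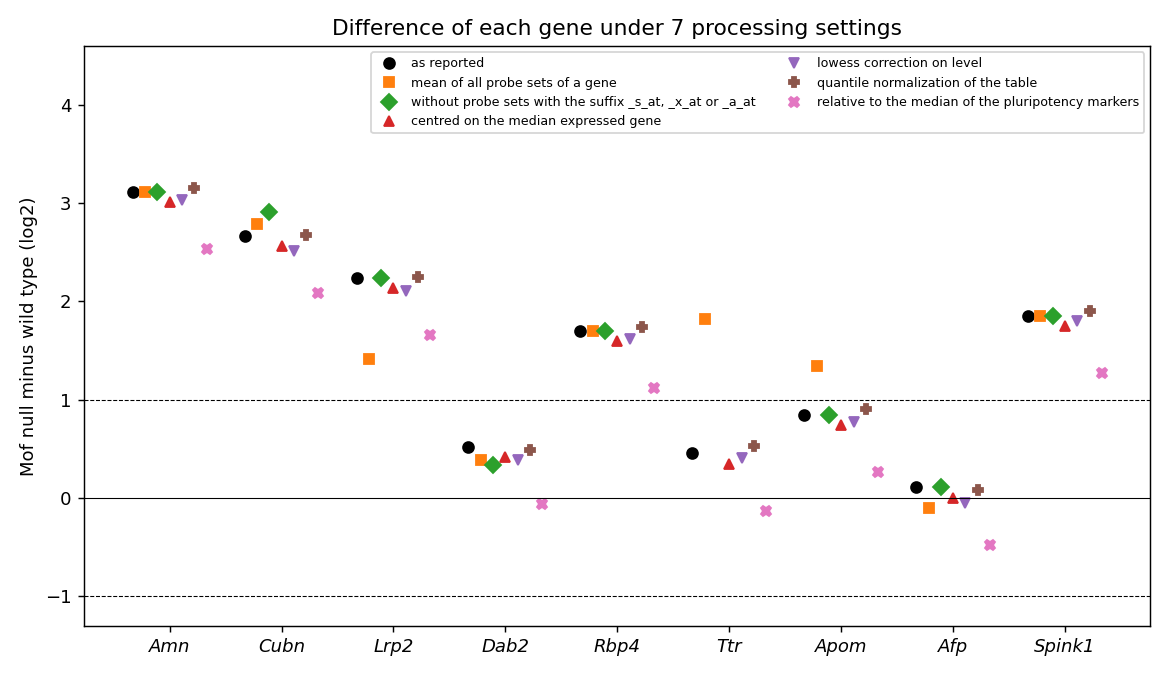
Difference between the arrays (Mof null minus wild type, log2, y axis) of each of the 9 genes as reported (black) and under 6 alternative settings (coloured), with dashed lines at 2-fold. Amn and Cubn stay above 2 in every setting drawn, Ttr and Apom pass 2-fold only when all their probe sets are averaged, Dab2 and Ttr turn below 0 relative to the pluripotency markers, and Afp stays near or below 0.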

How the data were processed

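The RNA of 2 cultures of mouse embryonic stem cells was read on 1 Affymetrix array each. The authors deposited log2 values per probe set, which per the submitters' processing notes were made by RMA (R 2.10.0, affy); the log2 scale was read from the values. RMA quantile-normalizes arrays, so a shift of most transcripts one way cannot be seen, and it compresses differences near the floor. Names came from the platform annotation (34945 with 1 symbol and 1 gene ID, 34741 of them found by gene ID in the RefSeq table of GRCm38.p6, used for names); 932 with several symbols and 9211 unlisted ones were left out. A gene took its probe set with the highest mean. The genes and lists were chosen with earlier results of these arrays known. Named genes are Kat8, the 9 genes, the 3 expressed genes of each list with the largest absolute difference, and the 3 nearest genes to Amn and to Cubn. List genes that were not found by symbol are not analysed here. No test was possible with 1 array per genotype; counting was tested on simulated data. Promoters came from RefSeq. Alternatives were other summaries of probe sets, filters, centring, trend correction (lowess, span 0.3), quantile normalization and thresholds. Python 3.11.15, numpy 2.4.6, pandas 2.3.3, statsmodels 0.14.6 and matplotlib 3.10.9 were used.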

Additional observations from a re-analysis of the deposited data

How the results depend on the processing

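No paired analysis was possible because each genotype has 1 array, and leaving out a replicate was not possible for the same reason; without replicates, values were compared by the pooled SD of 0.33 between probe sets of a gene. The count of 5 genes at least 2-fold higher was 7 with the mean of all probe sets (Ttr and Apom added), 4 with a filter at the 75th percentile (without Rbp4), 6 at 1.5-fold and 3 at 4-fold, and none of the 9 genes was past 2-fold lower under any alternative run. With the mean of all probe sets, Lrp2 differed by 1.41, Ttr by 1.82 and Apom by 1.34. Ttr has no value without probe sets carrying the suffix _s_at, _x_at or _a_at. Relative to the pluripotency median, chosen after seeing the data, the differences were 2.53 for Amn, 2.08 for Cubn, 1.66 for Lrp2, 1.27 for Spink1, 1.12 for Rbp4, 0.26 for Apom, -0.066 for Dab2, -0.13 for Ttr and -0.47 for Afp. This scaling lowers every gene by the same amount. Over the expressed genes of the 7 pathway lists, 7 were past 2-fold higher and 12 lower, beside 5.09% and 11.9% of all expressed genes. These pooled counts were 15 and 21 at 1.5-fold, 1 and 2 at 4-fold, and 2 and 28 relative to the pluripotency median. Over all 12015 expressed genes the counts at those settings were 2084 and 2303, 35 and 389, and 97 and 2842. The pooled counts are not read as a result about the pathways. Centring on the median expressed gene moved every gene by -0.10 and changed no call among the 9. Of 280 list counts under alternatives 61 moved, meaning by over 1.5 times or between 0 and another count. The alternatives include thresholds of 1.5-fold and 4-fold, at which counts change by construction. Of 140 list medians 13, in 6 lists, had the opposite sign, 5 of them relative to the pluripotency markers. One of these was past 2-fold as reported, that of the other plasma proteins, which was 0.13 with no filter on level against -1.51; that alternative adds genes below the filter. Besides it, 23 list medians moved by more than the pooled SD, with or without a change of sign.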

Other observations

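The Rbp4 gene has 2 annotated starts with unlike windows. One has 72.0% G and C, 40 CpG, a TATA box and 2 GC boxes, and the other 40.7%, 5 CpG and a FOXA motif. The Apom window holds none of the 6 motifs. Of the Dab2 windows, one has a GATA motif and the other the core of the HNF1 motif.

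The Lrp2 probe set with the same value on both arrays is 1 of 968 among the 45101 probe sets of the table for which the deposited values are identical between the arrays.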
